A study of Homo sapiens with 6 samples.

Results

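Collagen genes were taken as every gene whose symbol has the form COL, a number, A and a number, apart from COL17A1. The rule used names only, though it was set with earlier results of these data known. It found 43 genes among the 78932 rows of the count table. RNA was sequenced from cells labelled HCC1937, an established line from a triple-negative breast tumour with mutant BRCA1. Docetaxel, a taxane that stabilises microtubules, was given at 8 nM for 24 h to the cells of 3 libraries, and 3 libraries came from cells labelled con (control). Each group is labelled as biological replicates 1 to 3 of this 1 line, and what the controls received is not stated in the sources used here. The series was made to follow estrogen receptor expression under docetaxel.

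Libraries held 38622062 to 39181848 counts with docetaxel and 39033097 to 41675186 in control. A gene was tested where enough reads were present in enough libraries, which 18040 genes met, and it was called at an adjusted p under 0.05 by edgeR's quasi-likelihood test. Levels between libraries are given in CPM, read counts divided by the TMM-scaled library size, and levels between genes in TPM, which also divides by gene length. The epithelial keratin genes KRT7, KRT8 and KRT18 averaged 332, 797 and 606 TPM over the 6 libraries, but EPCAM and KRT19, which also mark epithelial cells, had 16 and 25 reads in all, and CDH1 averaged 0.316 TPM. The 3 keratin genes rose, and with the offsets for GC content and length described further on KRT7 and KRT8 were called higher but KRT18 was not (edgeR adjusted p = 0.603). The 6 epithelial markers summed to 3298 to 3415 CPM with docetaxel and 2771 to 2905 CPM in control. Of 10 fibroblast and stromal markers, POSTN had 0 reads, and DCN, LUM, PDGFRA and FAP had 6 to 29 reads in all. THY1, ACTA2, TAGLN and PDGFRB had 58 to 1088 reads in all, and VIM averaged 195 TPM. The 10 summed to 360.3 to 366 CPM with docetaxel and 372 to 380.3 CPM in control. VIM made up most of this sum, with means of 355 CPM with docetaxel and 368 CPM in control (edgeR adjusted p = 0.422). Of the 5 tested, edgeR called 0, and 4 had positive log2 fold changes, docetaxel over control. ACTA2, at 0.93, had an unadjusted p under 0.05 by edgeR. The part of these shifts in the collagen results was not tested. What sets the low counts of EPCAM, KRT19 and CDH1 was not tested. Leukocyte markers had 1 to 9 reads each in all. The endothelial markers PECAM1, CDH5 and VWF had 472, 115 and 99 reads in all, and edgeR called 0 of these 3. In bulk RNA, fewer cells that express a gene and less RNA per cell cannot be told apart.

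Collagens are the main structural proteins of the extracellular matrix. A collagen molecule is a triple helix of 3 chains, alike or different, in which 1 residue in 3 is glycine, the only residue small enough for the axis. Fibrillar collagens such as types I and V build cross-striated fibrils, type IV builds the sheet of the basement membrane under epithelia, type VII anchors that sheet to the stroma, and fibril-associated collagens coat fibrils. Chains assemble in fixed combinations, so the partner of each chain matters: COL1A1 normally joins COL1A2, and COL4A1 joins COL4A2.

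The repeat is visible in the coding sequence, where 1 codon in 3 is a glycine codon (GGN) and proline codons (CCN) are frequent between. In the longest such run the genes differ: it holds 338 repeats in COL1A1, COL5A1 and COL11A2, 113 in COL9A3, 75 in COL7A1, 66 in COL4A2, 42 in COL4A5 and 30 in COL15A1. The first 30 codons of that run are shown for the 6 genes called between docetaxel and control. They come from the GENCODE release 29 transcript with the longest coding sequence, 5′ to 3′ in the sense direction, with the glycine codons in capitals. The GC content compared further on is that of the longest transcript, not of these stretches. Any link between these stretches and the changes was not tested.
COL4A5: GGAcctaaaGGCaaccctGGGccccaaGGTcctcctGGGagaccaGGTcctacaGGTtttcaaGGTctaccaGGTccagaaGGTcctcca
COL4A2: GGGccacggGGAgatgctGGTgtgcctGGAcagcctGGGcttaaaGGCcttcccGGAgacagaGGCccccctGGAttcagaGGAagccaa
COL5A1: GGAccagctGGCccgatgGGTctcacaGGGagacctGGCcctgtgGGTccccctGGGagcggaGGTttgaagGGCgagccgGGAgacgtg
COL7A1: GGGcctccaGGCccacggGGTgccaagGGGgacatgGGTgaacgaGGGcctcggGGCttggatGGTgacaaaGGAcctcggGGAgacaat
COL9A3: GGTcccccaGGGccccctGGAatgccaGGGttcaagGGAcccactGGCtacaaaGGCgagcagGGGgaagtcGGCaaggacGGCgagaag
COL11A2: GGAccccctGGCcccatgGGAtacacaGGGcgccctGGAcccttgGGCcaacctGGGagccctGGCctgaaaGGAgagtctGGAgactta
In COL4A5 the stretch spans codons 1249 to 1278 and is 58.9% G or C, and in the other genes it is 64.4% (COL4A2) to 70.0% (COL5A1). Over the whole coding sequence the GC content was 55.5% in COL4A5, against 63.2% in COL4A2, 64.5% in COL5A1, 64.7% in COL11A2, 65.0% in COL7A1 and 71.6% in COL9A3. It was 65.1% in COL1A1, which was not called. Proline codons were 23.2% of all codons in COL4A5, the highest share among the 43 genes, and 14.5% in COL7A1.

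A few chains made up most of the collagen RNA. Of the summed collagen level per length, COL1A1 held 23.6% and COL5A1 20.7%, averaged over the 6 libraries, with COL4A2 next, and the 9 genes with the highest levels held 91.3%. COL1A1 had 41.9 to 44.6 TPM over the 6 libraries. It lay above COL5A1 in every library, and COL5A1 lay above COL4A2, at 35.1 to 41.6 against 20.3 to 24.0 TPM over all 6. The next 6 were COL7A1, COL12A1, COL9A3, COL4A5, COL4A1 and COL15A1, with means of 13.9, 13.2, 11.9, 8.81, 8.33 and 8.08 TPM, and each neighbouring pair in this order overlapped between libraries. After a gap with no overlap came COL6A1 at 3.08, COL11A2 at 2.57 and COL8A1 at 1.78 TPM. The other 11 tested genes averaged 0.0976 to 1.76 TPM.

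**Figure D1:**
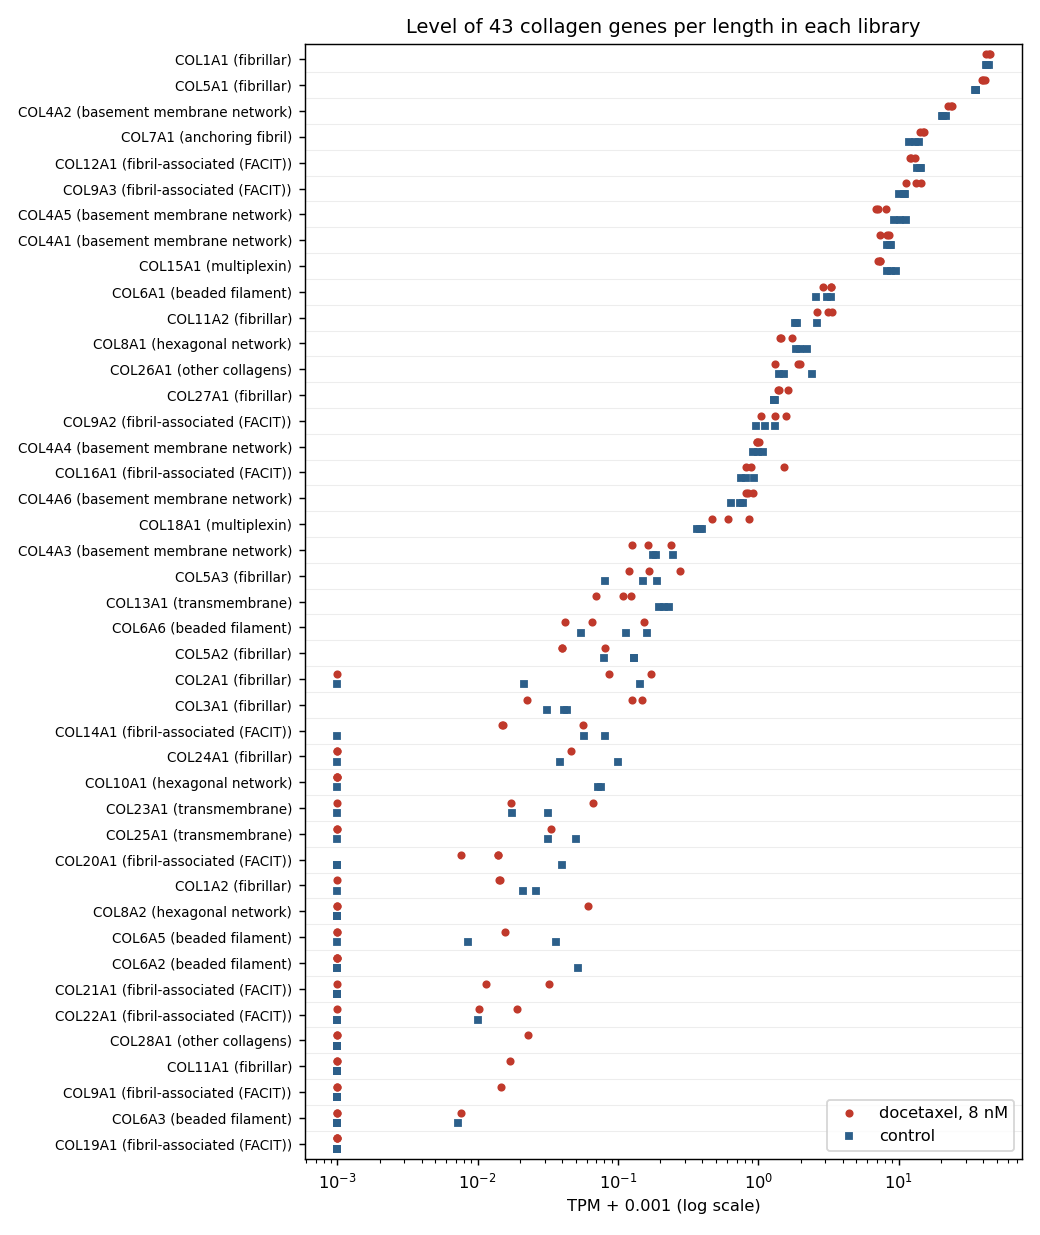
TPM of the 43 collagen genes in each library on a log axis after adding 0.001, from the highest mean to the lowest. Red circles are docetaxel libraries and blue squares are controls, each point 1 library, and points at the left edge have 0 reads. COL1A1, COL5A1 and COL4A2 lead, and COL1A2 lies among the genes with 0 reads in some libraries.

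Several tested chains, abundant or not, had almost no RNA of a usual partner. COL1A1 had 5492, 5358 and 5628 reads in docetaxel libraries and 5390, 5913 and 5589 in control libraries. COL1A2, the other chain of type I collagen, had 2, 0 and 2 reads in docetaxel libraries and 3, 0 and 4 in control libraries. The fibrillar genes COL3A1 and COL5A2, which usually accompany them, had 2 to 14 and 4 to 14 reads per library, and COL11A1, the partner of COL11A2, had 2 reads in all. COL6A1, a chain of the beaded filaments of type VI collagen, had 249, 227 and 255 reads in docetaxel libraries and 240, 272 and 210 in control libraries, while COL6A2 and COL6A3 had 4 reads each in all. Of the type IX chains, COL9A3 and COL9A2 were present at 11.9 and 1.22 TPM, and COL9A1 had 2 reads in all. As for the epithelial markers near 0, what sets these low counts was not tested.

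In total 20 of the 43 genes had too few reads to test, with 0 to 16 reads in a library and 274 reads in all together. COL19A1 had 0 reads in all 6 libraries, and at these depths 3 counts, the limit that a count of 0 allows, are 0.0720 to 0.0777 CPM in a library (counting error only). The 20 were COL1A2, COL2A1, COL3A1, COL5A2, COL6A2, COL6A3, COL6A5, COL8A2, COL9A1, COL10A1, COL11A1, COL14A1, COL19A1, COL20A1, COL21A1, COL22A1, COL23A1, COL24A1, COL25A1 and COL28A1. Type IV was the only family with more than 2 genes of which every gene was tested.

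With docetaxel, 5 of the 23 tested collagen genes were higher and 1 was lower. Among all tested genes 9.14% were called higher and 7.82% lower. The genes that rose were COL5A1, COL4A2, COL7A1, COL9A3 and COL11A2, and the gene that fell was COL4A5, which changed to 0.739-fold of control. Without docetaxel replicate 3 the collagen counts were 3 higher and 1 lower, without control replicate 2 they were 2 higher and 1 lower, and without docetaxel replicate 1 or control replicate 1 they included 2 lower. The median log2 fold change, docetaxel over control, was 0.12 over the 23 genes and 0.01 over all tested genes. A second fit used offsets, a correction that takes out each library's smooth trend with GC content and gene length over all genes. In it 0 of the 23 collagen genes were higher and 2 were lower, COL4A5 and COL15A1, against 2.77% higher, 1.65% lower and 4.41% either way of all tested genes, and at an unadjusted p under 0.05 it had 3 of the 23 higher and 5 lower, against 9.56% and 6.92% of all tested genes. The summed collagen level per length was 192, 181 and 188 TPM with docetaxel and 178, 183 and 179 TPM in control, and these overlapped. The summed CPM, which weighs long genes more, was 787, 772 and 787 with docetaxel and 728, 737 and 741 in control, and there every docetaxel library was higher.

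**Figure D2:**
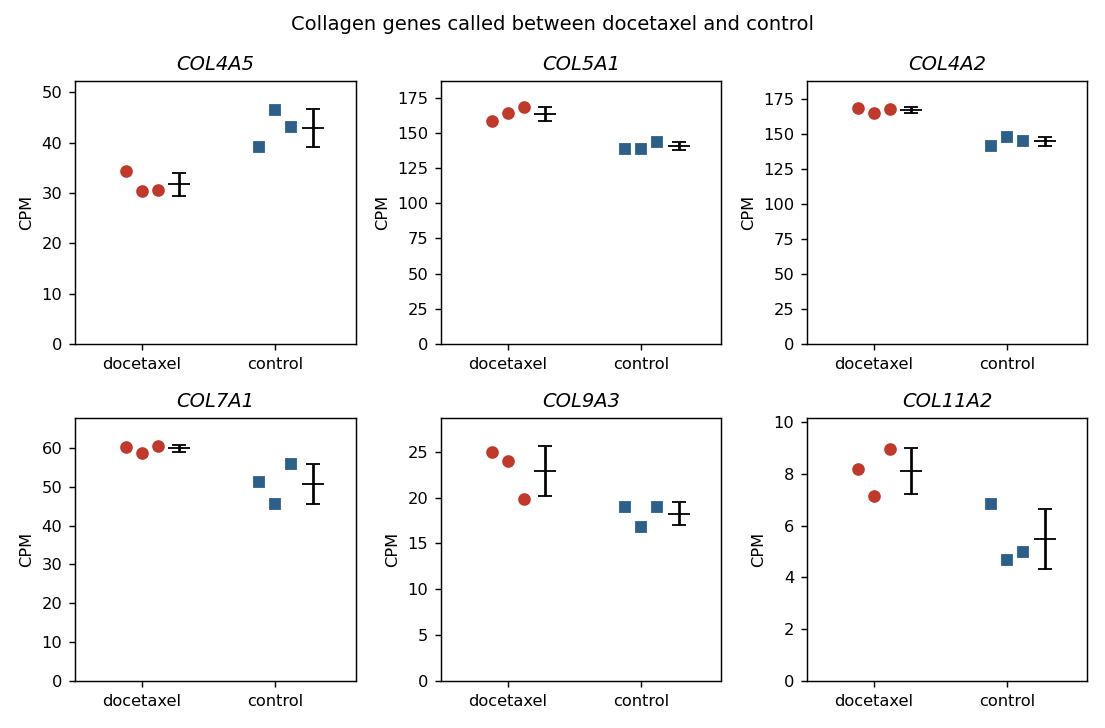
CPM, from 0, of the 6 called collagen genes in docetaxel libraries (red circles) and control libraries (blue squares), with the mean ± SD in black (n = 3 each). COL4A5 is lower with docetaxel and the other 5 genes are higher, and in none of the 6 do the groups overlap.

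COL4A5, an α chain of the basement membrane network of kidney, eye and ear and of some epithelia (ENSG00000188153, GRCh38 chromosome X, 108439844 to 108697545, plus strand), fell. COL4A5 had 34.3, 30.3 and 30.5 CPM in docetaxel libraries, against 39.1, 46.5 and 43.2 CPM in control libraries. All docetaxel values lay below all control values, and the means were 31.7 ± 2.25 CPM with docetaxel and 42.9 ± 3.70 CPM in control (SD, n = 3 each). On the log2 scale the fold change came to -0.44 ± 0.07 (SE), with a 95% confidence interval of -0.58 to -0.29 (edgeR adjusted p = 1.04e-04). The gene was called lower in all 16 alternative fits, among them the 6 that left out 1 library each, where the log2 fold change ran from -0.52 to -0.38. With GC and length offsets it was -0.44 (edgeR adjusted p = 4.99e-05).

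None of the other 5 type IV genes was called lower. COL4A2, which pairs with COL4A1 in the widespread basement membrane network (ENSG00000134871, GRCh38 chromosome 13, 110305812 to 110513209, plus strand), rose. COL4A2 had 169, 165 and 168 CPM in docetaxel libraries, against 142, 148 and 145 CPM in control libraries, without overlap. The log2 fold change of COL4A2 came to 0.21 ± 0.04 (SE; adjusted p = 8.39e-04 by edgeR), and with offsets 0.09 (adjusted p = 0.218), which was not called. COL4A1 had 44.3, 40.7 and 46.5 CPM with docetaxel and 43.6, 45.5 and 46.4 CPM in control, a log2 fold change of -0.04 with an interval of -0.17 to 0.09 (edgeR adjusted p = 0.739). COL4A6, the neighbour of COL4A5 and its partner in smooth muscle and some epithelia, had 2.70, 2.88 and 3.05 CPM with docetaxel and 2.41, 2.49 and 2.13 CPM in control (log2 fold change 0.30, without overlap, interval -0.14 to 0.73, edgeR adjusted p = 0.398). COL4A3 and COL4A4, which join COL4A5 in the kidney filter, had 21 to 41 and 160 to 168 reads in docetaxel libraries and 32 to 42 and 161 to 189 in control libraries. Both overlapped, with log2 fold changes of -0.17 ± 0.40 in COL4A3 and 0.03 ± 0.17 in COL4A4 (SE), and neither was called.

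The 6 type IV genes lie in 3 head-to-head pairs, each with its starts close together on opposite strands. By the first start listed for each gene in RefSeq's GRCh38.p14 table, the starts were 127 bases apart for COL4A1 and COL4A2. They were 419 apart for COL4A3 and COL4A4, and 380 for COL4A5 and COL4A6. Other annotated starts give other distances: the GENCODE coordinates of COL4A2 begin at 110305812, and the start used here is 110307284. The ratio of the chains within a library was compared in these 3 pairs, a comparison chosen after the values were seen. The ratio of COL4A5 to COL4A6 in TPM was 9.94, 8.22 and 7.82 with docetaxel and 12.7, 14.6 and 15.9 in control, so every docetaxel value was lower. The ratio of COL4A2 to COL4A1 was 2.89, 3.07 and 2.74 with docetaxel and 2.46, 2.46 and 2.37 in control, so every docetaxel value was higher. Both gave an exact two-sided permutation p = 0.1, the smallest that 3 against 3 allows, and 0.15 after adjustment over the 3 pairs. COL4A5 and COL4A6 had each separated the groups already, in opposite directions, so the outcome for their ratio was fixed and adds no support. The ratio of COL4A4 to COL4A3 was 6.05 ± 1.83 with docetaxel and 5.04 ± 1.05 in control (SD, n = 3 each, exact permutation p = 0.5), and the groups overlapped. All 3 ratios were taken without the GC and length offsets. GC content of the longest transcript was 62.0% in COL4A2 and 55.4% in COL4A1, and 50.9% in COL4A5 and 54.6% in COL4A6. The part of the GC trend described further on in these ratios was not tested.

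**Figure D3:**
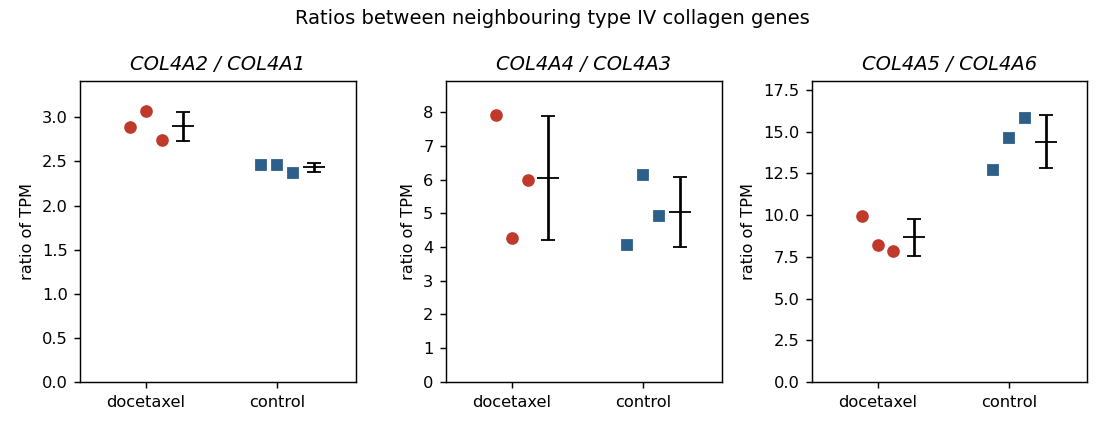
Ratio of TPM, from 0, within each library for the 3 neighbouring type IV pairs, with docetaxel libraries as red circles, control libraries as blue squares and the mean ± SD in black (n = 3 each). COL4A2 over COL4A1 is higher and COL4A5 over COL4A6 lower with docetaxel in every library, and COL4A4 over COL4A3 overlaps.

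The start regions of COL4A2 and COL4A5 are shown because these 2 neighbours of other type IV genes were called in opposite directions in the fit without offsets. Any link between these sequences and the changes was not tested. Each runs from 250 bases before to 50 bases after the first listed start on its own strand, from RefSeq's GRCh38.p14 table, at chr13:110307034-110307333 (plus) and chrX:108439588-108439887 (plus). The COL4A2 window contains the COL4A1 start. Capitals mark matches on either strand to the GC box (GGGCGG), to the CCAAT box and to the TATA box (TATAAA), which do not overlap each other here.
COL4A2: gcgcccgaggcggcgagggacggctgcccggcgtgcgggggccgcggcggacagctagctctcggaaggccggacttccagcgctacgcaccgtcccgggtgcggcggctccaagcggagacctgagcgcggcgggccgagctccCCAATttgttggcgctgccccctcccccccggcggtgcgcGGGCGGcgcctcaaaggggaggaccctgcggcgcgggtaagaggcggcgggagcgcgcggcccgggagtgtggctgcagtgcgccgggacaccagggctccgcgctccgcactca
COL4A5: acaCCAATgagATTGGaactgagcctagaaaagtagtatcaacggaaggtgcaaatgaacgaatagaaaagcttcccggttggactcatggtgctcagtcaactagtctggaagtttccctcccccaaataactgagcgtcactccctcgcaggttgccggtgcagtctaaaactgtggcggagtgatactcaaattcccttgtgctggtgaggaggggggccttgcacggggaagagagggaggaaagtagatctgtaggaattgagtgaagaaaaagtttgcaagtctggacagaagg
The COL4A2 window was 77.7% G or C and held 1 GGGCGG and 1 CCAAT. The COL4A5 window was 49.3% G or C and held 2 CCAAT and no GGGCGG. Neither held TATAAA. Of all 35116 start regions of this length in the table, 45.0% held the GC box, 34.6% the CCAAT box and 11.5% the TATA box. Of the 31 collagen genes in the table, counting the first region of each, the GC box was found in 18, the CCAAT box in 9 and the TATA box in 4.

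Among fibrillar genes 2 of 5 tested rose, and all 5 had positive log2 fold changes. All 5 belong to the top of 5 equal bins of transcript GC content, where 31.6% of all tested genes were called higher and the median log2 fold change was 0.18, against 9.14% and 0.01 over all bins. COL5A1, the chain that sets fibril diameter when it joins type I collagen (ENSG00000130635, GRCh38 chromosome 9, 134641774 to 134844843, plus strand), had 158, 164 and 168 CPM with docetaxel, against 139, 139 and 144 CPM in control. The groups did not overlap, and COL5A1 rose by 0.22 ± 0.04 on the log2 scale (SE, edgeR adjusted p = 5.93e-04), or 1.16-fold. With offsets it was 0.08 (edgeR adjusted p = 0.236), not called. COL11A2, a chain of the cartilage fibril collagen (ENSG00000204248, GRCh38 chromosome 6, 33162681 to 33192499, minus strand), had 316, 273 and 346 reads with docetaxel and 269, 199 and 205 in control. Its rise of 1.48-fold was the largest among the called genes (log2 fold change 0.57 ± 0.15 SE, edgeR adjusted p = 0.00760). By edgeR it was not called without docetaxel replicate 3 (adjusted p = 0.0757), without control replicate 2 (0.0738) or 3 (0.0514), or with offsets (0.129).

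COL1A1, the most abundant collagen gene here, had 143, 140.4 and 146 CPM with docetaxel and 137, 139 and 135 CPM in control. The groups did not overlap, but the difference was small, with a log2 fold change of 0.06 and an interval of -0.03 to 0.15 (edgeR adjusted p = 0.383), and with offsets the sign turned (-0.09, adjusted p = 0.210). COL27A1, a fibrillar collagen of cartilage, had 6.93, 8.41 and 7.11 CPM with docetaxel and 6.49, 6.26 and 6.49 CPM in control, without overlap, but was not called (log2 fold change 0.22, interval -0.05 to 0.50). COL5A3 had 11 to 26 reads in docetaxel libraries and 8 to 18 in control libraries, too few for a narrow interval (-0.70 to 1.61 on the log2 scale).

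COL7A1, which forms the anchoring fibrils under epithelia (ENSG00000114270, GRCh38 chromosome 3, 48564073 to 48595267, minus strand), rose 1.18-fold. COL7A1 had 60.3, 58.8 and 60.6 CPM in docetaxel libraries, against 51.2, 45.4 and 55.8 CPM in control libraries, and the highest control value lay below the lowest docetaxel value. On the log2 scale COL7A1 changed by 0.24 ± 0.06 (SE, edgeR adjusted p = 0.00800). By edgeR the call was lost without docetaxel replicate 3 (adjusted p = 0.0541) and without control replicate 2 (0.0956), and with offsets the log2 fold change was 0.06 (adjusted p = 0.715).

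Of 4 tested fibril-associated genes 1 rose, beside 9.14% of all tested genes and 31.6% in the top bin of GC content, to which it belongs. COL9A3, a type IX chain (ENSG00000092758, GRCh38 chromosome 20, 62816244 to 62841159, plus strand), had 25.0, 24.0 and 19.8 CPM with docetaxel and 19.0, 16.8 and 19.0 CPM in control, without overlap (log2 fold change 0.33 ± 0.09 SE, edgeR adjusted p = 0.0112). By edgeR it was not called without docetaxel replicate 1 (adjusted p = 0.0932) or 2 (0.0740), without control replicate 2 (0.0905) or with offsets (0.10, adjusted p = 0.630). Its exons share 45 bases with TCFL5 on the other strand, and the strand setting of the counting is not given. COL12A1, which links fibrils to other matrix, had 88.4, 85.2 and 82.6 CPM with docetaxel and 94.5, 93.9 and 91.4 CPM in control. Those groups did not overlap, at a log2 fold change of -0.13 (edgeR adjusted p = 0.0748), and it was called lower by DESeq2 (0.0364), with library-size scaling (0.0205) and without docetaxel replicate 1 (0.0215). COL16A1 had 194, 116 and 106 reads with docetaxel and 120, 103 and 111 in control, with docetaxel replicate 1 standing apart, and its log2 fold change of 0.41 was 0.07 without that library. COL9A2 differed by 0.25 on the log2 scale, with overlapping groups.

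COL15A1, a basement membrane proteoglycan collagen of the multiplexin family, had 17.5, 17.5 and 17.8 CPM with docetaxel and 19.4, 21.9 and 21.0 CPM in control. All docetaxel values were lower, and COL15A1 was just outside the threshold at -0.24 ± 0.09 on the log2 scale (SE, edgeR adjusted p = 0.0538). It was called lower in 7 of 16 alternative fits, among them DESeq2 (0.0253) and the fit with offsets (-0.33, edgeR adjusted p = 0.0166). COL18A1, its relative and the source of endostatin, had 71, 56 and 102 reads in docetaxel libraries and 45, 50 and 46 in control libraries. The groups did not overlap, but the log2 fold change of 0.79 was not called (edgeR adjusted p = 0.0555; called in 2 of 16 alternative fits), and 1401 of its exon bases lie over exons of SLC19A1 on the other strand, which had 21431 reads in all.

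COL13A1, a transmembrane collagen, had 17, 20 and 11 reads in docetaxel libraries and 34, 39 and 33 in control libraries, with no overlap. COL8A1, a short-chain network collagen, had 187, 189 and 229 reads in docetaxel libraries and 293, 275 and 258 in control libraries, also with no overlap. Both had negative log2 fold changes that were not called, at -1.04 ± 0.44 and -0.35 ± 0.15 (SE, edgeR adjusted p of 0.109 and 0.0997). COL6A1, COL6A6 and COL26A1 overlapped between the groups, with log2 fold changes of 0.12, -0.30 and 0.00. Counting called and uncalled genes, the groups did not overlap in 14 of the 23 tested genes, 9 higher and 5 lower. Over all tested genes they did not overlap in 32.0%, 17.0% higher and 15.0% lower.

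**Figure D4:**
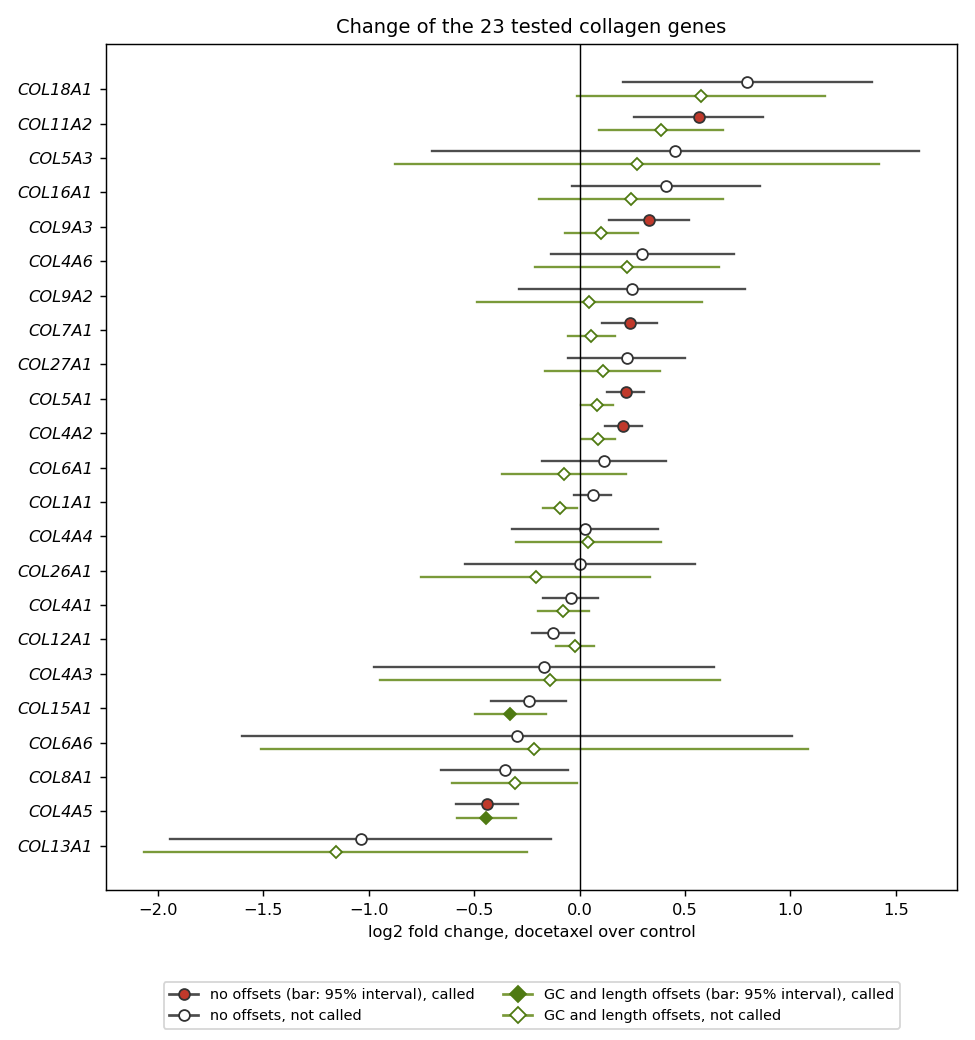
Log2 fold change, docetaxel over control, of the 23 tested collagen genes without offsets (circles) and with GC and length offsets (diamonds), each with its 95% confidence interval, filled where called. COL4A5 is filled in both, COL15A1 only with offsets, and COL11A2, COL9A3, COL7A1, COL5A1 and COL4A2 only without.

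The rises lay in the GC-rich genes. Of the 23 tested collagen genes 14 were in the top of 5 equal bins of GC content, from 58.3% of the longest transcript upward, and all 5 rises were among them. In that bin 31.6% of all tested genes were called higher, and 5 of 14 collagen genes is 35.7%. The median log2 fold change there was 0.23 for the collagen genes and 0.18 for all tested genes. COL4A5, at 50.9%, lay in the middle bin, where the median of all tested genes was 0.01 and 2.86% were called lower. Over the 23 genes the log2 fold change followed GC content with Spearman's rho of 0.73, over all 16421 tested genes with a GC value with 0.54. With offsets rho was 0.55 over the 23 genes and -0.01 over all. Genes share libraries and are not independent replicates. In each library the median deviation of log2(CPM + 1) from the mean of the 6 was taken in the top and the bottom GC bin. Top minus bottom was 0.10, 0.20 and 0.17 in docetaxel libraries and -0.11, -0.26 and -0.11 in control libraries. The trend thus separated the groups, and a drug effect and a library effect cannot be told apart in it.

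**Figure D5:**
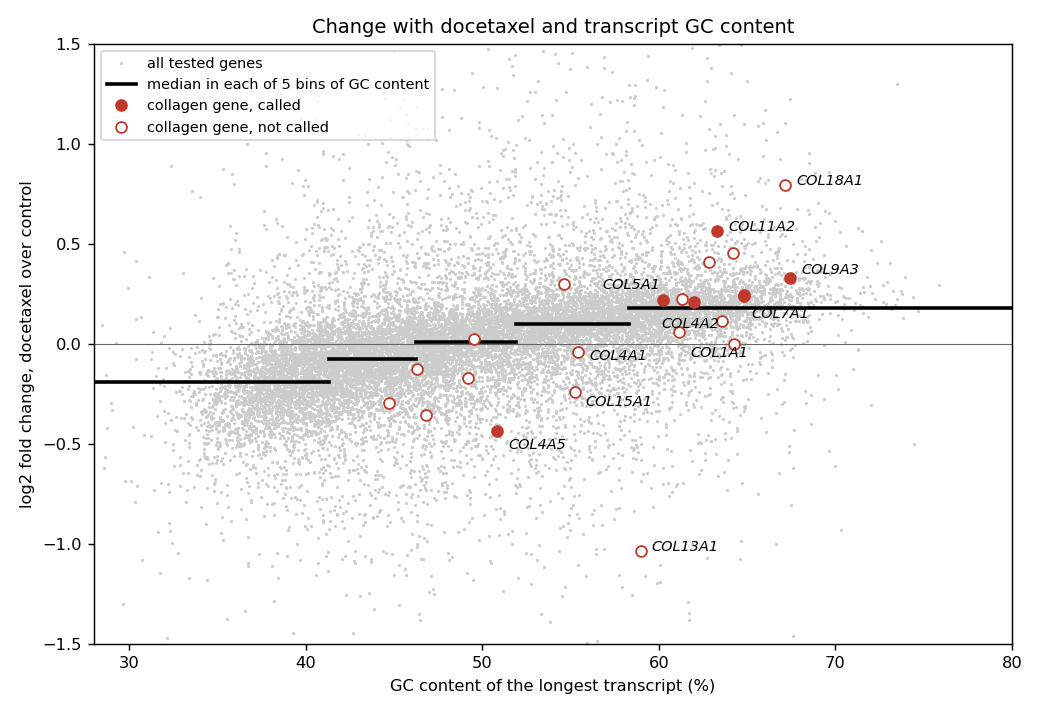
Log2 fold change, docetaxel over control, against GC content of the longest transcript for all tested genes (grey), with their median in each of 5 equal bins of GC content (black lines) and the 23 tested collagen genes in red, filled where called; 63 genes lie outside the axes. The called genes that rose sit beside the median of the top bin or above it, and COL4A5 lies below the median of the middle bin.

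Genes that modify, process, bind or degrade collagen were followed in 4 lists, of which 43 of 56 genes were tested. Of these 8 rose and 6 fell, beside the 9.14% higher and 7.82% lower of all tested genes. The 6 that fell had a GC content of 34.0% to 40.2%, in the lowest of the 5 bins. In that bin 28.8% of all tested genes were called lower and 0.183% higher. The 8 that rose had 49.1% to 61.9%, from the middle bin to the top bin. In these bins 3.65% (middle), 13.6% (next) and 31.6% (top) of all tested genes were called higher. Leaving out any 1 library left 3 to 5 higher and 3 to 6 lower, and offsets left 1 higher and 3 lower, beside 2.77% and 1.65% of all. In the list of modification and folding 6 of 16 rose and 2 fell. PLOD2, which hydroxylates lysines for stable crosslinks, averaged 76.4 ± 10.3 CPM with docetaxel and 114 ± 8.81 CPM in control (SD, n = 3 each, edgeR adjusted p = 0.00393). TMEM38B, an ER cation channel needed for collagen folding, changed by -0.58 on the log2 scale (edgeR adjusted p = 6.01e-05). FKBP10, an ER prolyl isomerase, and PLOD3, a lysyl hydroxylase and glycosyltransferase, both rose 1.12-fold (edgeR adjusted p of 0.00375 and 0.00653). With offsets PLOD2 and TMEM38B were still called lower, at -0.27 and -0.29, and only P3H1, a prolyl 3-hydroxylase, was called higher of this list, at 0.21 (edgeR adjusted p = 0.0111).

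Of 13 tested genes of export, processing and crosslinking 1 rose and 1 fell, and with offsets edgeR called 0, with 2 higher and 2 lower at an unadjusted p under 0.05. Of all tested genes 9.14% were called higher and 7.82% lower, and with offsets 2.77% and 1.65%. At an unadjusted p under 0.05 with offsets, 9.56% of all tested genes were higher and 6.92% lower. LOX, which starts crosslinks between collagen chains, averaged 16.6 ± 3.00 CPM with docetaxel and 22.9 ± 1.83 CPM in control, and its relative LOXL3 averaged 3.43 ± 0.154 CPM with docetaxel and 2.21 ± 0.0370 CPM in control (SD, n = 3 each; edgeR adjusted p of 0.00250 for LOX and 0.0297 for LOXL3). BMP1, which removes procollagen ends, and its relative TLL1 had log2 fold changes of 0.12 and -0.25 and were not called. Of 9 tested receptors 1 rose and 3 fell, and with offsets edgeR called 0, with 1 higher and 1 lower at an unadjusted p under 0.05. The 3 that fell had a GC content of 38.8% to 40.2%, in the lowest bin, where 28.8% of all tested genes were called lower. DDR1, an epithelial collagen receptor kinase, rose to 285, 269 and 273 CPM with docetaxel, against 255, 241 and 249 CPM in control, and the integrin chains ITGA1, ITGA2 and ITGB1 changed by -0.50, -0.39 and -0.31 on the log2 scale (edgeR adjusted p of 0.00877, 0.00993, 0.0399 and 0.0400 for the 4 genes). Of 5 tested genes of degradation and its inhibitors edgeR called 0, limma-voom 0 and DESeq2 0, with 0 at an unadjusted p under 0.05 and the smallest edgeR adjusted p at 0.559. With offsets 0 of the 5 were higher and 2 lower at an unadjusted p under 0.05. TIMP1, an inhibitor of matrix metalloproteases, was called lower with offsets at -0.18 (edgeR adjusted p = 0.00218). Its relative TIMP2, at -0.09, was not called (edgeR adjusted p = 0.128).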

How the data were processed

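The deposited file holds the authors' raw counts, whole numbers of reads for 78932 Ensembl identifiers, with a gene length column. Counts came from featureCounts 2.0.1, with MultiQC 1.11, on GRCh38, per the submitters' processing notes; per the labels the libraries were poly(A) enriched and sequenced as paired reads of 150 bases. The aligner, annotation, strand setting and handling of read pairs and multi-mapping reads are not stated in the sources used here. Among gene counts of 1 to 20, 56.2% to 62.9% per library were even, so both reads of a fragment may have been counted, and counts may overstate the number of fragments. Columns were matched by library name. Symbols were looked up by identifier, and coordinates, exon overlaps and GC content of the longest transcript from GENCODE release 29 (GRCh38).

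Groups were compared with edgeR 4.0.16 in R 4.3.3 (filterByExpr, TMM, robust glmQLFit, glmQLFTest, two-sided) and Benjamini-Hochberg adjustment over 18040 genes. The common coefficient of variation was 0.0759. TPM used the deposited lengths. The members, lists and alternatives were chosen with earlier results of these data known. Named were all called genes, the 12 tested genes with the highest TPM, genes with 0 reads and up to 4 genes per list by p; others, such as COL13A1, P3H1 and TIMP1, were chosen after their values were seen. Libraries of a group differed beyond sampling noise (dispersion index 4.92 to 12.7), and separate cultures are not stated, so p-values cover only the spread of these libraries. The code was tested on simulated data. Alternatives were other scalings, DESeq2 1.42.0, limma-voom (limma 3.58.1), other filters, a replicate block, GC and length offsets (loess, span 0.5) and leaving out each library.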

Additional observations from a re-analysis of the deposited data

How the results depend on the processing

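Of the 23 tested collagen genes, COL4A5 was called lower in all 16 alternative fits. COL5A1 and COL4A2 were called higher in 14, all but the offset fits. Without 1 library the number of collagen genes called higher ran from 2 to 5 and lower from 1 to 2. Over all tested genes it ran from 990 to 1397 higher and 740 to 1841 lower, and in the pathway lists from 3 to 5 higher and 3 to 6 lower. The count of collagen genes called lower was 2 with RLE scaling, with a stricter filter (1 CPM in 3 libraries) and with offsets, and 3 with library-size scaling and with DESeq2. With GC and length offsets, alone or with the replicate block, 0 collagen genes were higher and 2 lower, and in the pathway lists 1 was higher and 3 were lower. With offsets edgeR called 499 of all tested genes higher and 297 lower, and with offsets and the replicate block 361 and 212. Library-size scaling called 1096 genes higher and 1866 lower. The pathway lists had 5 higher without a filter on low counts and 5 with the replicate block.

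Signs turned only in genes that were not called. On the log2 scale COL1A1 was at -0.0917 and COL6A1 at -0.0745 with offsets, and at -0.0911 and -0.0683 with the block as well. COL26A1, at 0.00, was at -0.0087 with RLE scaling, -0.0395 with library-size scaling, -0.0083 by DESeq2, -0.00055 without a filter, -0.21 with offsets and -0.19 with offsets and the block. COL4A4 was at -0.0125 with library-size scaling. Without 1 library COL26A1 ran from -0.14 to 0.27, COL4A3 from -0.48 to 0.0133, COL4A4 from -0.0182 to 0.0751 and COL6A6 from -1.02 to 0.11. The cause was not tested.

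Same-numbered libraries shared little: the correlation of their deviations from the group means was 0.0080, 0.0070 and 0.016. Between libraries of different numbers it ran from -0.0144 to 0.0060. Values this small cannot show whether same-numbered libraries shared a culture or day, which is not stated. With the replicate block 5 collagen genes were higher and 1 lower, and 1283 and 1106 of all tested genes. At 5 to 26 reads per library COL5A3 and COL6A6 had wide intervals, and no difference was called in either at this depth.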
